A study of Mus musculus with 8 samples.

Results

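The genes of the IL-1 receptor complex, its antagonists and its kinases were examined in islets of β-CB1R+/+ and β-CB1R-/- mice. The 10 genes were Il1a, Il1r1, Il1r2, Il1rap, Il1rn, Myd88, Irak1, Irak2, Irak3 and Irak4, and their probes were found by matching each probe's RefSeq accession to the gene symbols, without use of any measured value. They are 10 of 21154 genes matched on the array and had 15 of its 55681 probes. RNA was taken from islets picked by hand, and Agilent mouse arrays were read in the single dye Cy3. The knockout mice, β-CB1R-/-, were made to lose the cannabinoid 1 receptor in beta cells: both Cnr1 alleles were floxed, and tamoxifen activated MIP-Cre/ERT, a Cre recombinase under the mouse insulin promoter. The control littermates, β-CB1R+/+, had the same floxed alleles and the same tamoxifen but no Cre, so that loss of the receptor and presence of the transgene cannot be told apart. All mice were male, of the C57BL/6 strain by the labels, and fed a standard diet, and the age of these mice was not given in the sources used here. The sample labels name only CB1 wild type and CB1 knockout, and their growth text describes the global knockout, while the title and design of the series name the beta cell knockout. There were 4 β-CB1R+/+ and 3 β-CB1R-/- mice on 8 arrays, since RNA of β-CB1R-/- mouse 2 was run on 2 arrays, whose values were averaged.

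IL-1α and IL-1β bind the type 1 receptor (IL-1R1), which then recruits the accessory protein encoded by Il1rap. The adaptor MyD88 joins the complex and brings in the kinase IRAK4, which activates IRAK1 and IRAK2 and thereby NFκB and the MAP kinases. The pathway is held back at several levels. The antagonist encoded by Il1rn occupies the receptor without signalling, the decoy receptor IL-1R2 binds the cytokine without a signalling domain, and IRAK3 (IRAK-M) blocks release of the other kinases from the receptor. Beta cells are known to carry abundant IL-1R1, and IL-1β from islet macrophages is known to impair them.

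Levels are log2 intensities, taken relative to the 75th percentile of their array and given with the SD between mice, and differences are β-CB1R-/- minus β-CB1R+/+. A level is comparable between mice for 1 probe but not between probes. Between 33304 and 39988 probes were well above background on each array. A probe was compared if 3 or more of the 7 mice had it well above background. This left 39165 probes for limma, of which 43 passed an adjusted p of 0.05. In bulk islets, fewer cells of a type and less RNA per cell cannot be told apart. The arrays of the genotypes lay on opposite sides of 1 slide, so that position and genotype cannot be told apart either. The Cnr1 probe, which reports the targeted gene, lay at -1.11, -0.77, -0.53 and -0.02 in β-CB1R+/+ mice and at -2.30, -3.13 and -2.28 in β-CB1R-/- mice, with no overlap. It was well above background on 4 of 4 β-CB1R+/+ and 3 of 4 β-CB1R-/- arrays, and its difference of -1.97 did not pass adjustment either (limma adjusted p = 0.193). Whether that probe lies inside the floxed part was not tested.

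Of the 15 probes, 14 were compared, and at least 1 probe was compared for each of the 10 genes. None of the 14 passed the adjusted threshold of limma, against 0.11% of all probes compared (0.107% higher and 0.00255% lower in β-CB1R-/- islets). At an unadjusted limma p under 0.05 there were 2 of 14 (14.3%), Il1r1 on the lower side and Il1rap on the higher side, beside 3.59% of all probes (1.67% higher and 1.92% lower). The groups of mice did not overlap at 3 of 14 probes (21.4%), those same probes and 1 of the Irak1 probes, beside 4.12% of all probes (2.16% higher and 1.96% lower). Il1rap was well above background on 0 of 4 β-CB1R+/+ arrays and was compared only through the β-CB1R-/- mice, where it was high, so that its place in both counts is partly set by the filter. When only probes well above background on all 8 arrays were fitted, 1 of the 9 member probes left, that of Il1r1, had an unadjusted limma p under 0.05, beside 1086 of 28180 probes. Those 9 probes were of 6 genes, without Il1rap, Il1rn, Irak3 and Irak4. Of the 14 differences 8 were above and 6 below 0, with a median of 0.19.

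**Figure D1:**
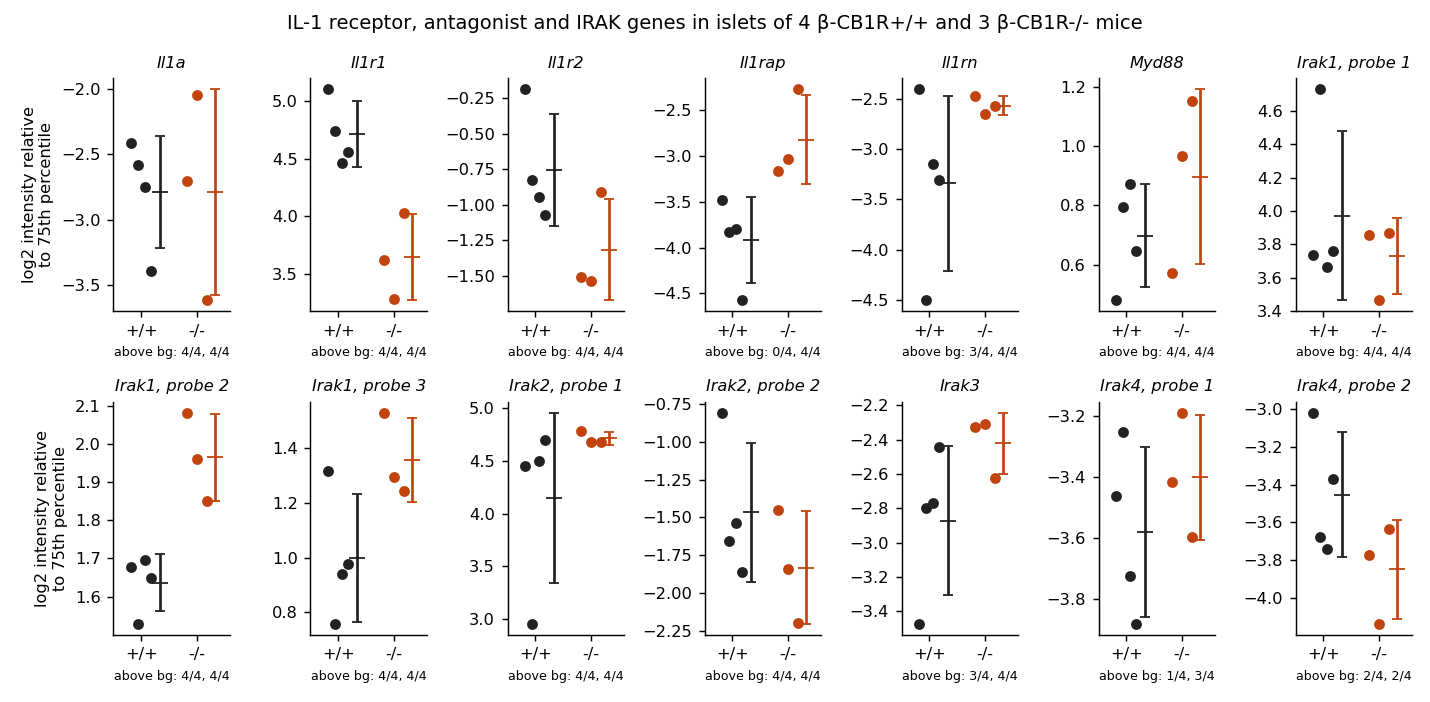
Log2 intensity relative to the array's 75th percentile for the 14 compared probes in each β-CB1R+/+ (+/+, black) and β-CB1R-/- (-/-, orange) mouse, with the mean and SD beside the points and, under each panel, the number of arrays on which the probe was well above background in each genotype. Each panel has its own scale; Il1r1 lay between 4.46 and 5.10 in +/+ mice and between 3.28 and 4.03 in -/- mice.

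The receptor gene Il1r1 was lower in every β-CB1R-/- mouse. Its probe lay at 5.10, 4.74, 4.46 and 4.56 in β-CB1R+/+ mice 1 to 4 and at 3.62, 3.28 and 4.03 in β-CB1R-/- mice 1 to 3. The lowest β-CB1R+/+ mouse was thus above the highest β-CB1R-/- mouse, and all 8 arrays were well above background. The means were 4.71 ± 0.28 (SD, n = 4) and 3.64 ± 0.38 (SD, n = 3), a difference of -1.07 (standard error 0.255, 95% confidence interval -1.66 to -0.48). This corresponds to a 2.10-fold lower intensity (95% confidence interval 1.40 to 3.16). The difference had an unadjusted limma p of 0.0030 and ranked 154 of 39165, but it did not pass adjustment (limma adjusted p = 0.770). The exact permutation test gave a two-sided p of 0.0286, the smallest that 4 mice against 3 allow. The repeat arrays of β-CB1R-/- mouse 2 read 3.26 and 3.31, a gap of 0.049.

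Il1r1 has a pair of annotated starts on chromosome 1, about which RefSeq (GRCm38.p6) gives the following windows, each from 250 bases before to 50 bases after the start. They are shown because Il1r1 was the member with the smallest p and its array probe does not say which start was used. Motifs were searched on both strands and matches are in capitals: the decameric NFκB consensus, the cAMP response element half-site TGACG and the interferon-activated sequence TTCNNNGAA. The first window lies at chr1:40224830-40225129 and the second at chr1:40266336-40266635, both on the plus strand.
Il1r1, first start: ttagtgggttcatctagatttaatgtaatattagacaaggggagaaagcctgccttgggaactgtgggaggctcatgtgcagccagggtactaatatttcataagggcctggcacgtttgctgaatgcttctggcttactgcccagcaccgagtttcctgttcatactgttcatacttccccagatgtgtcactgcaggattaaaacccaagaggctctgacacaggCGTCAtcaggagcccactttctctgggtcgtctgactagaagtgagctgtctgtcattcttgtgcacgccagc
Il1r1, second start: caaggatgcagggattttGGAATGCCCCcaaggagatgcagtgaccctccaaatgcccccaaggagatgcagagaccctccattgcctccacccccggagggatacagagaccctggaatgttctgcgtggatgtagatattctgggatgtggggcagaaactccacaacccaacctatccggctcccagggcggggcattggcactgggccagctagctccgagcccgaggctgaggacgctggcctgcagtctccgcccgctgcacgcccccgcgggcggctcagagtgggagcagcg

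The upstream window held the half-site on its minus strand (read here as CGTCA) and the downstream window held an NFκB match on its minus strand. The half-site occurs in 20.8% and the NFκB consensus in 8.46% of the 32851 promoter windows in RefSeq's table. The full cAMP response element TGACGTCA was in none of the 15 member windows and in 1.79% of all windows. The other members with an NFκB match were the overlapping pair of Irak1 windows, and the half-site was also in windows of Irak1 and Irak3. The interferon-activated sequence was in the windows of Il1r2 and Myd88, and in 8.30% of all windows. A match describes the letters only.

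Il1rap, which encodes the accessory protein that IL-1R1 needs to signal, had a probe on the higher side. The probe A_52_P467232 lay at -3.47, -3.83, -3.80 and -4.58 in β-CB1R+/+ mice and at -3.17, -3.04 and -2.27 in β-CB1R-/- mice. It was well above background on 0 of 4 β-CB1R+/+ arrays and on 4 of 4 β-CB1R-/- arrays, with no overlap between the groups. The means were -3.92 ± 0.47 (SD, n = 4) and -2.82 ± 0.49 (SD, n = 3). Because the β-CB1R+/+ level was not well above background, the fold is given as a bound on the means only. The dimmest intensity that counted as well above background was put in wherever a β-CB1R+/+ reading was lower. The mean was then at least 1.75-fold higher in β-CB1R-/- islets. That bound leaves out the spread between mice and holds only for the scanner's own background subtraction. The measured means differed by 1.10 (limma adjusted p = 0.999), a value that rests on β-CB1R+/+ readings not well above background. The background correction matters at this level, and with normexp in place of the scanner's own subtraction the difference was 0.32 (95% confidence interval -0.0075 to 0.65), an interval that includes 0. The other probe, A_55_P2041422, which matches another transcript of Il1rap, was well above background on 0 of 8 arrays and was not compared. The single RefSeq window of Il1rap, at chr16:26581455-26581754 on the plus strand, held none of the motifs and is shown beside those of Il1r1 as the window of the other receptor subunit.
Il1rap: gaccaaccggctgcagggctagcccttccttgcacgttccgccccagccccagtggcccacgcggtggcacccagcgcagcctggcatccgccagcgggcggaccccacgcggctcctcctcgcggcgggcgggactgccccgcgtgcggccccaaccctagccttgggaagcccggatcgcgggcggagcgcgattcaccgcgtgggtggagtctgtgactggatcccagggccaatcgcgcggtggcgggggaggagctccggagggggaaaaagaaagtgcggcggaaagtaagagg

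Among the ligands, Il1a had a difference near 0. It lay at -2.41, -2.58, -2.75 and -3.39 in β-CB1R+/+ mice and at -2.71, -2.05 and -3.62 in β-CB1R-/- mice. The highest and the lowest mouse were both β-CB1R-/-. The difference was -0.0043 (95% confidence interval -0.92 to 0.91, limma adjusted p = 0.9997), an interval wide enough to hold a 1.88-fold rise or a 1.89-fold fall. The repeat arrays of 1 mouse differed by 0.96 at this probe, more than at 93.9% of the probes compared. Il1b, the other agonist and the one released by islet macrophages, was measured on 10 spots per array and had a difference of -0.31 (95% confidence interval -0.91 to 0.30, limma adjusted p = 0.999).

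None of the genes that restrain the receptor passed the test, and their differences had both signs. The decoy receptor gene Il1r2 lay at -0.18, -0.83, -0.94 and -1.07 in β-CB1R+/+ mice and at -1.51, -1.54 and -0.91 in β-CB1R-/- mice. Its β-CB1R-/- mice 1 and 2 were below every β-CB1R+/+ mouse, while mouse 3 lay among them. The difference was -0.56 (95% confidence interval -1.21 to 0.09, limma adjusted p = 0.999). It was -0.37 without β-CB1R+/+ mouse 1 and -0.77 without β-CB1R-/- mouse 3. Like that of Il1r1, the probe was well above background on all 8 arrays. Il1r2 and Il1r1 lie close together on chromosome 1. In both of them mouse 1 was the highest β-CB1R+/+ mouse and mouse 3 the highest β-CB1R-/- mouse. The same mice were highest in the list of alpha cell markers given below, and a link between the genes was not tested.

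The antagonist gene Il1rn lay at -2.40, -4.51, -3.15 and -3.31 in β-CB1R+/+ mice and at -2.47, -2.65 and -2.57 in β-CB1R-/- mice. The β-CB1R-/- mice were close together (SD 0.091), and β-CB1R+/+ mouse 1 was above all of them. The difference was 0.78 (95% confidence interval -0.24 to 1.80, limma adjusted p = 0.999). It was 0.39 without β-CB1R+/+ mouse 2, the lowest mouse, and 1.09 without β-CB1R+/+ mouse 1, the highest. The probe was well above background on 3 of 4 β-CB1R+/+ and 4 of 4 β-CB1R-/- arrays, and with normexp the difference was 0.19. The inhibitory kinase gene Irak3 lay at -3.47, -2.80, -2.77 and -2.44 in β-CB1R+/+ mice and at -2.33, -2.31 and -2.63 in β-CB1R-/- mice, a difference of 0.45 (95% confidence interval -0.17 to 1.07, limma adjusted p = 0.999). It overlapped at 1 mouse of each genotype, was also well above background on 7 of 8 arrays, and had a difference of 0.059 with normexp and of 0.25 without β-CB1R+/+ mouse 1.

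The adaptor gene Myd88 was measured on 10 spots per array. It lay at 0.48, 0.79, 0.87 and 0.65 in β-CB1R+/+ mice and at 0.57, 0.97 and 1.15 in β-CB1R-/- mice. The groups overlapped, and the difference was 0.20 (95% confidence interval -0.30 to 0.69, limma adjusted p = 0.999). The interval runs from a 1.23-fold lower to a 1.62-fold higher level, and the difference was 0.072 without β-CB1R-/- mouse 3, 0.13 without β-CB1R+/+ mouse 1 and 0.36 without β-CB1R-/- mouse 1.

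Irak1, the kinase that leaves the receptor to activate TRAF6, had 3 probes that disagreed in sign. The brightest, A_55_P2099080 (probe 1), lay at 3.73, 4.73, 3.66 and 3.76 in β-CB1R+/+ mice and at 3.85, 3.47 and 3.87 in β-CB1R-/- mice, with a difference of -0.24 (95% confidence interval -0.94 to 0.45). Here β-CB1R+/+ mouse 2 stood above all other mice. The difference was 0.010 without that mouse and 0.068 with normexp, so that the sign of this probe was not stable. Probe 2, A_55_P2153862, which matches a different transcript, lay at 1.68, 1.53, 1.69 and 1.65 against 2.08, 1.96 and 1.85. The genotypes did not overlap at this probe, yet the difference of 0.33 was small (95% confidence interval -0.07 to 0.73, limma adjusted p = 0.999). Its spread within genotypes was lower than that of 98.7% of the probes compared. Probe 3, A_52_P149835, had a difference of 0.36 (95% confidence interval -0.12 to 0.83), with mouse 1 of the β-CB1R+/+ group inside the β-CB1R-/- range.

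Irak2, the second kinase activated at the receptor, also had probes of opposite sign. Probe 1, A_55_P2082979, lay at 4.45, 2.95, 4.50 and 4.70 in β-CB1R+/+ mice and at 4.78, 4.68 and 4.67 in β-CB1R-/- mice. Apart from β-CB1R+/+ mouse 2, the 6 mice lay within 0.34 of each other. The difference of 0.56 (95% confidence interval -0.39 to 1.51, limma adjusted p = 0.999) was 0.16 without that mouse and 1.19 with normexp. Probe 2, A_55_P2082974, ran the other way, with a difference of -0.37 (95% confidence interval -1.07 to 0.34), and matches the same transcript.

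Irak4, which starts the kinase cascade, was at the edge of detection. Its probe A_52_P67440 was well above background on 1 of 4 β-CB1R+/+ and 3 of 4 β-CB1R-/- arrays and had a difference of 0.18 (95% confidence interval -0.33 to 0.69). That difference was 0.074 and 0.079 without β-CB1R-/- mouse 2 or β-CB1R+/+ mouse 4, and 0.28 and 0.29 without β-CB1R-/- mouse 3 or β-CB1R+/+ mouse 2. Its probe A_52_P166266 was well above background on 2 of 4 arrays in each genotype and had a difference of -0.40 (95% confidence interval -0.96 to 0.17). The repeat arrays of 1 mouse read -2.78 and -5.50 at the latter probe, a gap of 2.72 that was larger than at 99.9% of the probes compared. The intervals of both probes span 0.

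**Figure D2:**
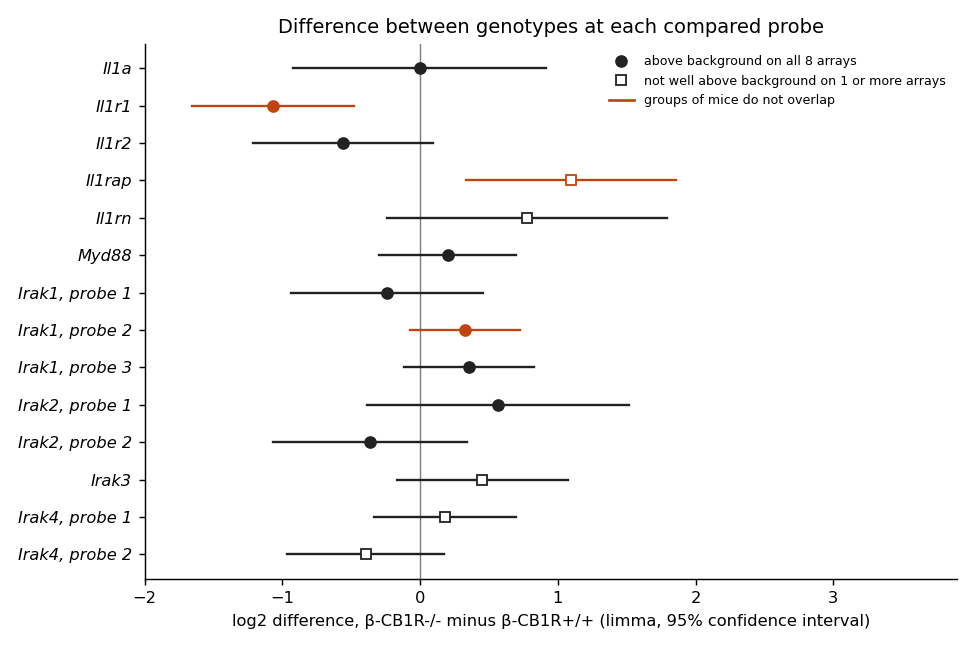
Log2 difference, β-CB1R-/- minus β-CB1R+/+, with limma's 95% confidence interval for the 14 compared probes. Squares are probes not well above background on at least 1 array, and orange marks the 3 probes at which the mice of the genotypes did not overlap. The interval of Il1r1 runs from -1.66 to -0.48, and that of Il1rap is set against β-CB1R+/+ readings not well above background.

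The rest of the IL-1 pathway was described through 4 lists with 76 genes, of which 62 were compared at their brightest compared probe. No gene passed the adjusted threshold of limma, against 0.171% of all 16959 genes taken in the same way. At an unadjusted limma p under 0.05 there were 2 (3.23%, beside 3.9% of all genes), and groups did not overlap at 2 (3.23%, beside 4.83%). In all 34 were higher and 28 lower in β-CB1R-/- islets, and the median difference was 0.025. The 14 genes not compared were well above background on at most 3 of 8 arrays, among them Il33, Il1rl1, Il6, Ptgs2, Icam1 and Saa3.

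Of the other ligands and receptors of the family 3 of 8 compared were higher and 5 lower. The IL-18 binding protein gene Il18bp had a difference of 0.31 (exact permutation p = 0.371), and Il1f10 (IL-38) one of -0.57 (exact permutation p = 0.571). Of the processing genes 4 of 8 were higher and 4 lower. The unadjusted calls were Casp1 and Cxcl10. Casp1, the protease that cleaves pro-IL-1β, had a difference of 0.48 (exact permutation p = 0.0857). Pycard, the adaptor that links it to the sensor, had one of 0.65 (limma unadjusted p = 0.062, limma adjusted p = 0.999). It lay between 1.11 and 1.16 in β-CB1R+/+ mice and at 2.50, 1.69 and 1.20 in β-CB1R-/- mice 1 to 3. The genotypes did not overlap, but β-CB1R-/- mouse 3 was close to the β-CB1R+/+ range. The exact permutation p of 0.0286 is the smallest that 4 mice against 3 allow. The sensor gene Nlrp3 lay between -3.72 and -3.24 in β-CB1R+/+ mice and between -3.97 and -3.80 in β-CB1R-/- mice (exact permutation p = 0.0571). The repeat arrays of β-CB1R-/- mouse 2 read -3.51 and -4.08, and the former value lay inside the β-CB1R+/+ range. The Nlrp3 probe was well above background on 3 of 4 and 1 of 4 arrays, so that the β-CB1R+/+ mice alone met the filter. This partly sets its place among the genes that did not overlap.

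Downstream of the IRAK kinases 16 of 32 genes were higher and 16 lower, with a median of -0.00073 and a range of -0.52 to 0.37. The extremes were Ube2n, a ubiquitin-conjugating enzyme that works with TRAF6 (-0.52), and the p38 kinase activator Map2k3 (0.37), while the JNK1 gene Mapk8 had a difference of -0.42. Among genes known to be induced by IL-1, 11 of 14 compared were higher and 3 lower, with a median of 0.12, where 44.3% of all genes were higher and the median of all genes was -0.039. The list ranged from -0.59 to 0.33 in β-CB1R+/+ mice and from -0.26 to 0.54 in β-CB1R-/- mice, with wide overlap. The chemokine gene Cxcl10 was well above background on 1 of 4 β-CB1R+/+ and 4 of 4 β-CB1R-/- arrays, so that it could be compared through the β-CB1R-/- mice alone. It lay at -4.88, -3.20, -3.76 and -1.88 in β-CB1R+/+ mice and at -2.88, -1.56 and -0.42 in β-CB1R-/- mice. The genotypes overlapped at β-CB1R+/+ mouse 4. The adhesion molecule gene Vcam1, well above background on 2 of 4 β-CB1R+/+ arrays, had a difference of 1.19 (exact permutation p = 0.286) and Lcn2, an acute-phase gene, one of 0.61 (exact permutation p = 0.314).

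**Figure D3:**
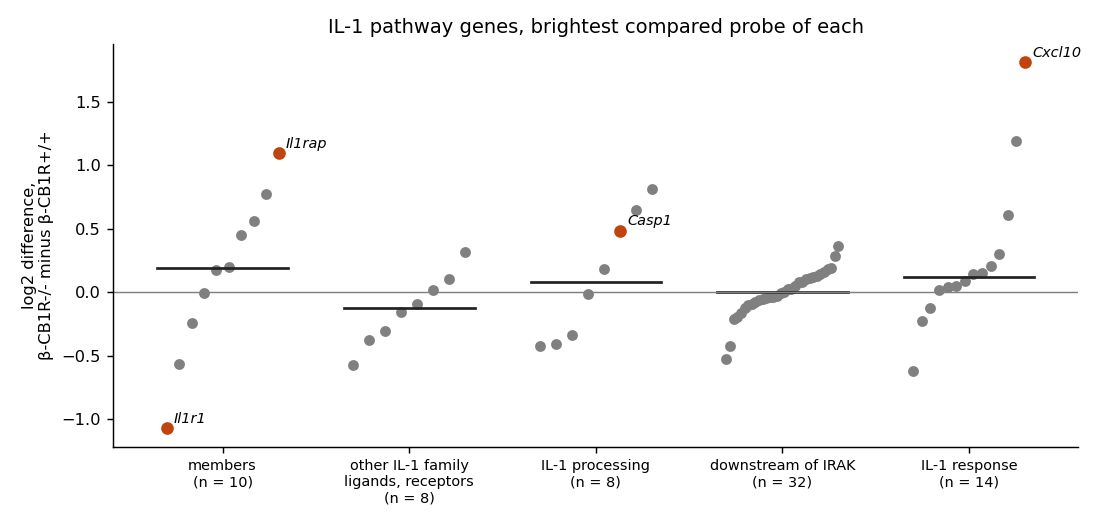
Log2 difference, β-CB1R-/- minus β-CB1R+/+, at the brightest compared probe of each member and of each gene in the 4 pathway lists. The line is the median of each list, and orange names genes with an unadjusted limma p under 0.05. Il1r1 lay at -1.07 and the 32 genes downstream of IRAK between -0.52 and 0.37, while the points of Il1rap and Cxcl10 are measured differences against β-CB1R+/+ readings mostly not well above background.

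Marker genes of other islet cells were set beside the members. Markers of alpha cells, which carry glucagon, were lower in β-CB1R-/- islets for 5 of 6 genes (median -0.67), of which Ttr, Irx1 and Irx2 had an unadjusted limma p under 0.05 (3 of 6, beside 3.9% of all genes) and none passed adjustment. With each gene centred on its mean over the mice, the median level of this list ranged from -0.05 to 0.49 in β-CB1R+/+ mice and from -0.80 to 0.05 in β-CB1R-/- mice. The mouse lowest in the alpha cell list, β-CB1R-/- mouse 2 (-0.80), was also the lowest in Il1r1, and the mouse highest in it, β-CB1R+/+ mouse 1 (0.49), was the highest in Il1r1. The order was not the same throughout: β-CB1R+/+ mouse 4 (-0.05) was below β-CB1R-/- mouse 3 (0.05) in the list and above it in Il1r1 (4.56 and 4.03). For beta cells 9 of 11 markers were lower (median -0.14), with Ins2 at 0.074, and the list ranged from -0.11 to 0.41 against -0.39 to 0.22. The mouse lowest in Il1r1, β-CB1R-/- mouse 2, was the lowest in this list too, at -0.39, with β-CB1R-/- mouse 1 next at -0.35. Here too the order differed: β-CB1R-/- mouse 3 (0.22) was above β-CB1R+/+ mice 1, 3 and 4 in the list and below every β-CB1R+/+ mouse in Il1r1. The mouse highest in Il1r1, β-CB1R+/+ mouse 1, lay at -0.06 in the list. All markers of both lists were well above background on all 8 arrays. The part of these cell types in the Il1r1 difference was not tested.

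Macrophages are a known source of IL-1β, and their markers were higher for 12 of 14 genes (median 0.40), with ranges of -0.36 to 0.15 in β-CB1R+/+ and -0.14 to 0.54 in β-CB1R-/- mice. Adgre1, which encodes F4/80, had a difference of 0.040. Itgax (0.95) and Mrc1 had an unadjusted limma p under 0.05 (2 of 14, beside 3.9% of all genes), C1qb (0.42) did not overlap between genotypes (1 of 14, beside 4.83% of all genes), and no gene of the list passed adjustment. Mrc1 was well above background on 1 of 4 β-CB1R+/+ and 4 of 4 β-CB1R-/- arrays, so that the filter partly sets its place in that count. Neutrophils are known to carry IL-1R2, and their markers were higher for 6 of 8 (median 0.048), with S100a8 well above background on 2 of 4 and 3 of 4 arrays. The part of these cells in the members' values was not tested.

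Fos, an immediate-early gene, was high in β-CB1R+/+ mice 3 and 4 (6.31 and 5.34) and in β-CB1R-/- mouse 2 (5.84) and lay between -1.59 and 0.75 in the other 4 mice. Its part in the Il1r1 values was not tested.

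**Figure D4:**
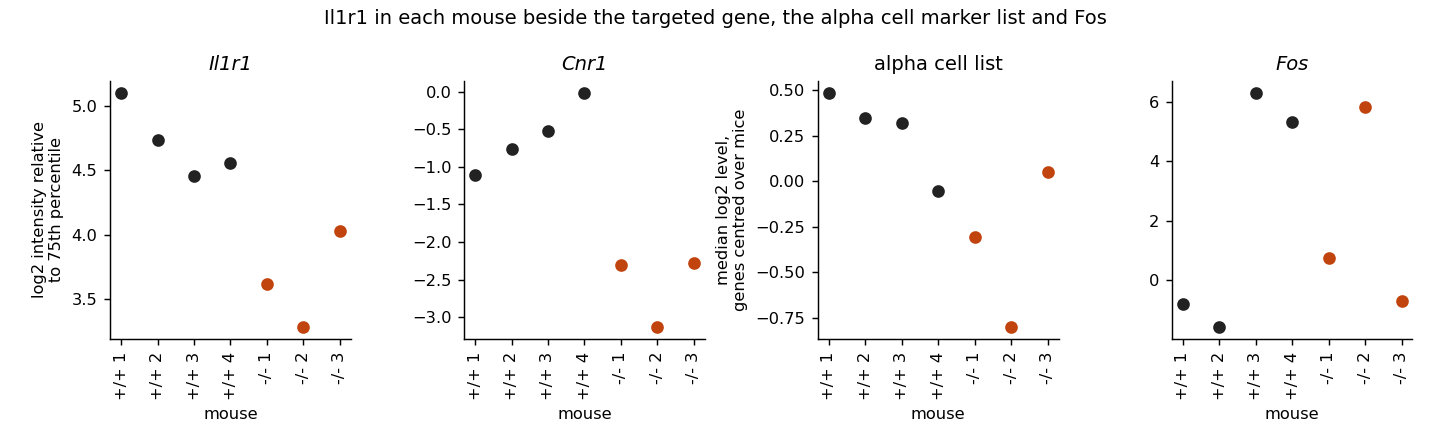
Log2 intensity relative to the 75th percentile in each mouse for Il1r1, the targeted gene Cnr1 and the immediate-early gene Fos, and the median of the 6 alpha cell markers with each gene centred on its mean over the mice, with β-CB1R+/+ mice in black and β-CB1R-/- mice in orange. Il1r1 and Cnr1 separate the genotypes, the alpha cell list overlaps at β-CB1R+/+ mouse 4 (-0.05) and β-CB1R-/- mouse 3 (0.05), and Fos is high in 2 β-CB1R+/+ mice and 1 β-CB1R-/- mouse.

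The Il1r1 difference kept its direction in all 17 alternatives run, but most of them could not reverse it. Those with another filter, an intensity trend or the methods' t-test reuse the same estimate. Leaving out a mouse cannot reverse groups that do not overlap, and the replicate block repeats the fit without β-CB1R+/+ mouse 4. On the log2 scale the Il1r1 difference ranged from -1.26 without β-CB1R-/- mouse 3 to -0.89 without β-CB1R-/- mouse 2. The adjusted p lay between 0.316 and 1.00 in limma and the methods' test. For Il1rap the difference ranged from 0.32 with normexp, where its interval included 0, to 1.27 without β-CB1R-/- mouse 1, all against β-CB1R+/+ readings not well above background.

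**Figure D5:**
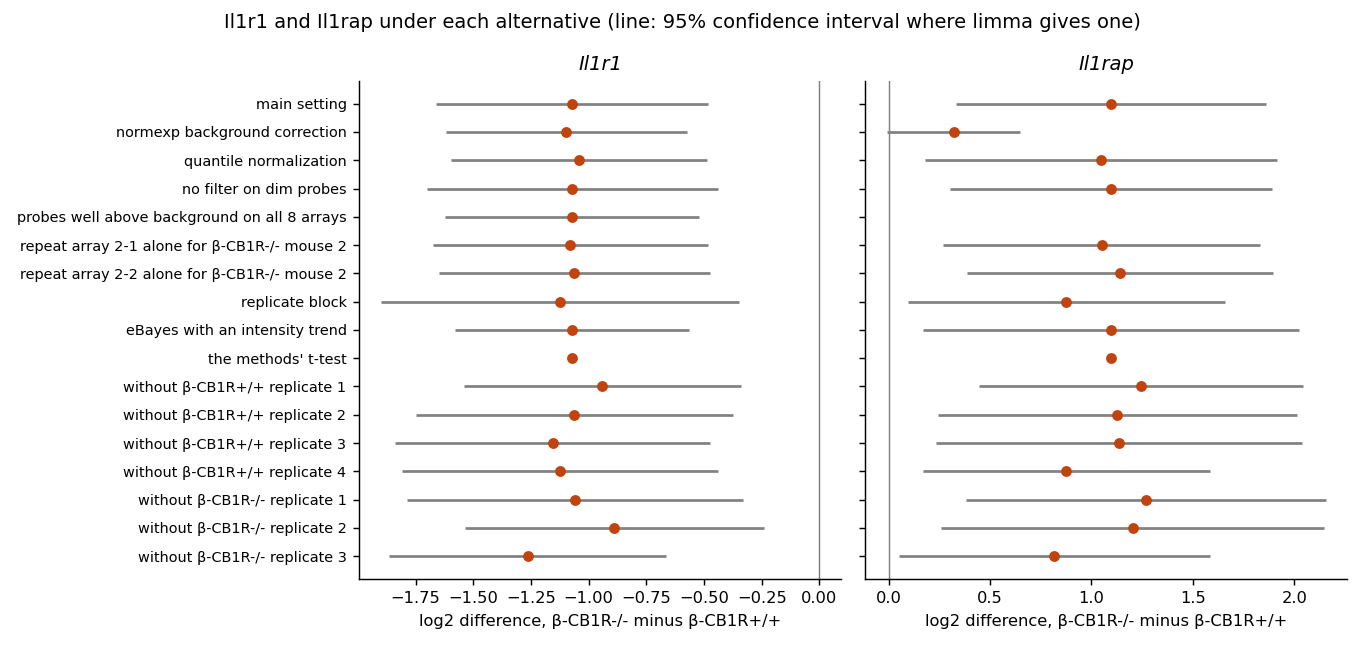
Log2 difference, β-CB1R-/- minus β-CB1R+/+, of Il1r1 and Il1rap under each alternative on the log2 scale, with 95% confidence intervals where limma gives them. Il1r1 stayed between -1.26 and -0.89, and Il1rap dropped to 0.32 with normexp and has no value where probes had to be above background on all 8 arrays.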

How the data were processed

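Islet RNA of 4 β-CB1R+/+ and 3 β-CB1R-/- mice was measured on 8 arrays. The authors deposited spot intensities from Feature Extraction 11.5.1.1, background-subtracted and not scaled between arrays, with the spots' median and background intensity. They also deposited a Z score per spot, matched by standardised log10 intensities to within 0.0050 and centred at array medians of -0.20 to -0.15. Intensities were put on the log2 scale relative to each array's 75th percentile over 59305 non-control spots. Spots marked as non-uniform or population outliers (135 to 356 per array) were left out, no spot was saturated, spots of a probe and the repeat arrays were averaged, and a probe was compared if 3 or more of 7 mice had it well above background. limma 3.58.1 (lmFit, eBayes; R 4.3.3) was fitted to all 39165 probes, two-sided, with Benjamini-Hochberg adjustment at 0.05. Exact permutation tests ran over the 35 splits of the mice, and two-sided p-values came from absolute differences in means. The number of arrays limits the precision. Probe accessions were matched to RefSeq (GRCm38.p6), and no probe coordinates are given because the array header names mm9.

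The 10 genes and all lists were chosen with earlier results of these data known. The genes named are all members, Cnr1, Il1b, the 3 genes with the smallest unadjusted p in each pathway list, and Ins2, Adgre1 and Fos. Ttr, Irx1, Irx2, Mrc1, Itgax, C1qb and S100a8 were named after their values were seen, as were the 6 genes given as examples of those not compared. Each list was read at the brightest compared probe of each gene. Other marker lists (T cells, endothelial, stellate, acinar, duct, delta and PP cells, immediate-early genes) had no gene past adjustment, with medians of 0.022, -0.028, 0.86, 0.19, 0.097, -0.27 and -0.25.

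The alternatives were normexp on median intensities with an offset of 50 (the files lack mean intensities), quantile normalisation, the deposited Z scores, other filters on dim probes, either repeat array alone, a replicate block, an intensity trend, the methods' t-test and leaving out each mouse.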

Additional observations from a re-analysis of the deposited data

Results flagged for a closer look

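At 2 of the 14 compared member probes β-CB1R+/+ mouse 2 stood far from the other β-CB1R+/+ mice. At the brightest Irak1 probe it read 4.73, above the 3.66 to 3.76 of the other mice, and at the brightest Irak2 probe it read 2.95, below their 4.45 to 4.70. Chance alone flags about 1 in 20 such groups, or 0.70 of 14. The shifts ran in opposite directions, and each was seen at 1 probe only: the other Irak1 probes read 1.53 and 0.76 and the other Irak2 probe read -1.66 in that mouse. Without that mouse the difference between genotypes was 0.010 for Irak1 and 0.16 for Irak2. In that mouse the lists of immediate-early genes (-1.92), stellate cells and fibroblasts (-1.74), duct cells (-0.97), neutrophils (-0.89), acinar cells (-0.80), IL-1 response genes (-0.59) and T cells (-0.23) were the lowest of the 7 mice and the beta cell list (0.41) the highest. The part of these in the Irak1 and Irak2 values was not tested.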

How the results depend on the processing

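No member probe and no gene of the 4 pathway lists passed the adjusted threshold under any alternative run. Over the 166 values of the 10 members' brightest probes under alternatives, 156 kept the direction and 10 reversed, and 7 of 10 members never reversed. The values with another filter, the intensity trend or the methods' t-test reuse the main estimate and so keep the direction by construction. Those with the replicate block repeat the fit without β-CB1R+/+ mouse 4. The tally therefore does not measure stability. Il1a reversed to 0.013 with quantile normalisation, 0.012 (Z units) with the deposited Z scores, 0.16 with repeat array 2-1 alone, 0.12, 0.063 and 0.0076 without β-CB1R+/+ mouse 1, 2 or 3, and 0.41 without β-CB1R-/- mouse 3, so that leaving out 1 mouse gave values from -0.38 to 0.41. Irak1 reversed to 0.068 with normexp and 0.010 without β-CB1R+/+ mouse 2 (from -0.35 to 0.010 over the mice left out), and Irak4 to -0.016 with normexp. The cause was not tested.

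The count over all probes was 43, and it was 23 with no filter, 24 where a probe had to be above background on every array, 0 with the methods' t-test after adjustment (1412 at an unadjusted p of 0.05), and 0 to 42 when 1 mouse was left out: 0 without β-CB1R-/- mouse 2 (785 at an unadjusted limma p under 0.05), 5 without β-CB1R+/+ mouse 3 or β-CB1R-/- mouse 3, 15 without β-CB1R+/+ mouse 2, 19 without β-CB1R+/+ mouse 4 and 22 without β-CB1R+/+ mouse 1. With the replicate block it was 0 (1714 at an unadjusted limma p under 0.05), and Il1r1 was -1.12; β-CB1R+/+ mouse 4 has no partner of its number and so drops out of the comparison in that fit, which gives the same Il1r1 difference as leaving that mouse out. Same-numbered mice of the genotypes correlated at 0.42, -0.27 and -0.06 in their deviations from the group means. Only number 1 correlated best with its own number. So few correlations cannot decide whether the numbers pair the mice, and the main fit treats them as unpaired. A block for slide or scan could not be run, since all arrays were on 1 slide and in 1 scan. The compared probes of Il1rap, Il1rn, Irak3 and Irak4 were not well above background on every array.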
